A study of Mus musculus with 3 samples.

Results

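The miR-378 family was followed in exosomes shed by mouse bone-marrow-derived macrophages. Its members were taken by name from the deposited tables of mature microRNAs (miRNAs), which gave 5 of 1915 listed miRNAs, namely mmu-miR-378a-3p, mmu-miR-378a-5p, mmu-miR-378b, mmu-miR-378c and mmu-miR-378d, written without the mouse prefix from here on. All libraries came from wild type C57BL/6 macrophages, whose marrow was taken from the leg bones of adult mice and cultured for 24 h with M-CSF, a cytokine on which macrophages depend. Vesicles were then collected by ultracentrifugation from medium with exosome-depleted serum after 72 h. There was 1 group with 3 libraries, called libraries 1 to 3 here, and no treated or parent-cell library, so levels and their spread were described and no conditions were compared. Separate animals or cultures are not stated for the libraries, and the spread between them may be technical.

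A miRNA is cut from a hairpin precursor, and 1 of its arms usually guides silencing of messenger RNAs that pair with its seed, bases 2 to 8. The gene of miR-378a lies inside Ppargc1b, which encodes PGC-1β, a coactivator of mitochondrial and fatty-acid-oxidation genes. MiR-378a is known from muscle, heart and brown fat, where it acts on energy metabolism, and in macrophages its 3p arm is known to rise with IL-4 and to repress Akt1. MiR-378b, miR-378c and miR-378d come from other genes and resemble the 3p arm.

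The mature sequences of miR-378b, miR-378c and miR-378d are shown because their likeness bears on how reads could be divided among the members. They are from RefSeq (GRCm38.p6), 5′ to 3′, with the seed in capitals. The table matched 3 of the 5 names, and miR-378a-3p and miR-378a-5p are named only.
miR-378b: cUGGACUUggagucagaaga
miR-378c: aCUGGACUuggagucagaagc
miR-378d: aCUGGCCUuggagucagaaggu
The 3 sequences share a run of 14 bases, cuuggagucagaag, that no other of 1679 mature names in the RefSeq table contains. Over an overlap of 20 bases, miR-378c and miR-378b match at 19, and the difference is C21A, counted from 1 at the 5′ end of miR-378c. Since miR-378b starts 1 base later, its seed is shifted against that of miR-378c although the letters are nearly the same. MiR-378c and miR-378d match at 19 of 21 bases and differ by A6C, inside the seed, and by C21G. The 3 seeds therefore all differ, and no other mature name in the table has any of them at bases 2 to 8. Since the table lacks miR-378a-3p and miR-378a-5p, neither this search nor that for the run of 14 bases covered them. Whether miR-378a-3p shares the run or a seed was thus not examined.

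The place of the mature sequence in the hairpin also differed, and the RefSeq hairpins are shown with the mature part in capitals.
Mir378b: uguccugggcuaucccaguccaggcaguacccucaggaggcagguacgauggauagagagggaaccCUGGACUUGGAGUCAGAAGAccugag
Mir378c: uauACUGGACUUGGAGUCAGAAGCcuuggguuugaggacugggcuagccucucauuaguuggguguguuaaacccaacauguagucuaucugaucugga
Mir378d: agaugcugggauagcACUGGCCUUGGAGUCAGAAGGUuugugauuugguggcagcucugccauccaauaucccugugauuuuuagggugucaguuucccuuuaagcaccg
In Mir378b the mature sequence takes bases 67 to 86 of 92, near the 3′ end, whereas it takes bases 4 to 24 of 99 in Mir378c and 16 to 37 of 110 in Mir378d, near the 5′ end.

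In the GENCODE annotation of GRCm38, Mir378a is a minus-strand gene of chromosome 18 (61397835 to 61397900) and sits in an intron of Ppargc1b on the same strand. An annotated miRNA gene of the opposite strand, Gm25301, overlaps it. Mir378b is a plus-strand gene of chromosome 11 (88352773 to 88352864) within an intron of Msi2, which is transcribed from the opposite strand. Mir378c is a minus-strand gene of chromosome 14 (46954830 to 46954928) within an intron of Samd4, also of the opposite strand. Mir378d is a minus-strand gene of chromosome 10 (126710282 to 126710391), with no overlapping annotated gene. The host relation on the same strand was thus found for miR-378a alone among these 4 genes.

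The libraries held 3008995, 2489984 and 3208617 miRNA counts, and levels are counts per 1000000 miRNA counts (CPM). A count of 0 would allow up to 0.997, 1.20 and 0.935 CPM (3 counts), and every member stood above this in every library. A read covers a whole miRNA, so levels of different miRNAs were not divided by length, but adapter ligation and PCR can favour some sequences. Wilson 95% intervals and these floors cover counting error only.

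MiR-378a-3p, the guide arm of the Ppargc1b hairpin, carried most of the family, and all 5 members were highest in library 1. MiR-378a-3p had 126719, 14217 and 16968 counts in libraries 1, 2 and 3, or 42113, 5710 and 5288 CPM. It was high in library 1 and close to equal in the other two. Its mean was 17704 ± 21140 CPM (SD, n = 3), and 5499 CPM without library 1. It ranked 7th of 735 detected miRNAs in library 1 and 27th of 651 and 659 in libraries 2 and 3. In library 1 it stood between miR-140-3p (44208 CPM) and miR-92a-3p (41594 CPM). In library 2 its neighbours were miR-103-3p (5712 CPM) and miR-26a-5p (5702 CPM), both inside its own Wilson interval of 5617 to 5804 CPM. In library 3 they were miR-99b-5p (5352 CPM) and miR-25-3p (5257 CPM), also inside its interval of 5209 to 5368 CPM. Its rank among these neighbours was therefore not resolved in libraries 2 and 3.

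MiR-378c had 11018, 1336 and 703 counts, or 3662, 537 and 219 CPM. It ranked 39th, 73rd and 93rd, and unlike miR-378a-3p it was clearly lower in library 3 than in library 2. Its mean was 1472 ± 1903 CPM (SD, n = 3), and 377.8 CPM without library 1. MiR-378b had 3174, 416 and 267 counts, or 1055, 167 and 83.2 CPM, and averaged 435 ± 538 CPM (SD, n = 3), or 125 CPM without library 1. It followed the order of miR-378c, highest in library 1 and lowest in library 3. MiR-378d had 730, 58 and 75 counts, or 243, 23.3 and 23.4 CPM, and averaged 96.4 ± 127 CPM (SD, n = 3), or 23.3 CPM without library 1. Libraries 2 and 3 could not be told apart for it.

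MiR-378a-5p, the other arm of the miR-378a hairpin, was the lowest member, with 67, 11 and 11 counts. This was 22.3, 4.42 and 3.43 CPM, and the Wilson intervals of libraries 2 and 3 overlapped (2.47 to 7.91 and 1.91 to 6.14 CPM). Its mean was 10.0 ± 10.6 CPM (SD, n = 3), and 3.92 CPM without library 1. The order miR-378a-3p, miR-378c, miR-378b, miR-378d, miR-378a-5p was the same in each library. The SD of every member exceeded its mean, so neighbours in the order of means do not differ beyond their spread over libraries, and the order rests on the comparison within each library. There the Wilson intervals of neighbours did not overlap.

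**Figure D1:**
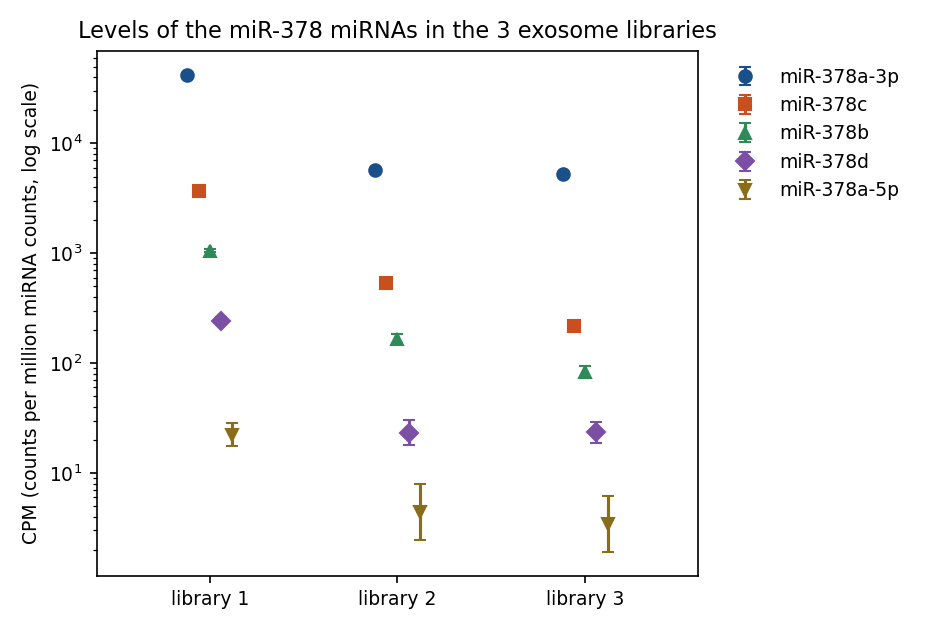
Level of each miR-378 miRNA (CPM, log axis) in libraries 1, 2 and 3, as 1 point per library with Wilson 95% intervals for counting error. The order of the members is the same in each library and all 5 are highest in library 1, where miR-378a-3p reached 42113 CPM.

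The family together took 4.71% of miRNA counts in library 1 (Wilson 95% interval 4.69 to 4.73), 0.644% in library 2 (0.634 to 0.654) and 0.562% in library 3 (0.554 to 0.570). The mean was 1.97% ± 2.37 (SD, n = 3), and 0.603% without library 1. MiR-378a-3p made up 89.4%, 88.6% and 94.1% of the family counts. MiR-378c made up 7.78%, 8.33% and 3.90%, so the larger part of miR-378a-3p in library 3 was matched by a smaller part of miR-378c.

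The minor members kept narrower ratios to miR-378a-3p than their levels did between libraries. For every 100 counts of miR-378a-3p there were 8.69, 9.40 and 4.14 counts of miR-378c in libraries 1, 2 and 3, a mean of 7.41 ± 2.85 (SD, n = 3). The highest ratio was 2.27 times the lowest, while the CPM of miR-378c was 16.7 times higher in library 1 than in library 3. MiR-378b stood at 2.50, 2.93 and 1.57 per 100, a mean of 2.33 ± 0.692 (SD, n = 3). For both, library 3 was the low one, and its Wilson interval (3.84 to 4.47 for miR-378c and 1.39 to 1.78 for miR-378b) lay below those of libraries 1 and 2. MiR-378d stood at 0.576, 0.408 and 0.442 per 100, a mean of 0.475 ± 0.0889 (SD, n = 3). Its ratio was highest in library 1, where the interval of 0.536 to 0.620 overlapped that of library 3 (0.352 to 0.554) but not that of library 2 (0.315 to 0.528).

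Of the pairs compared, miR-378c and miR-378b, which share the 19 bases shown above, kept the narrowest ratio. There were 3.47, 3.21 and 2.63 counts of miR-378c per count of miR-378b in libraries 1, 2 and 3, a mean of 3.11 ± 0.429 (SD, n = 3), and the highest ratio was 1.32 times the lowest. Against miR-378d, which differs from miR-378c inside the seed, the ratio of miR-378c was 15.1, 23.0 and 9.37, with the highest 2.46 times the lowest. Other pairs came near the narrowest. Relative to miR-378a-3p, the highest ratio was 1.41 times the lowest for miR-378d and 1.46 times for miR-378a-5p. It was 1.86 times for miR-378b and 2.27 times for miR-378c. How the authors' counting treated reads that fit more than 1 member, or that carry an error or a trimmed end, was not given in the sources used here. The counts of the members, of which miR-378b, miR-378c and miR-378d are near-identical, are therefore uncertain. The part of shared reads in these ratios was not tested.

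**Figure D2:**
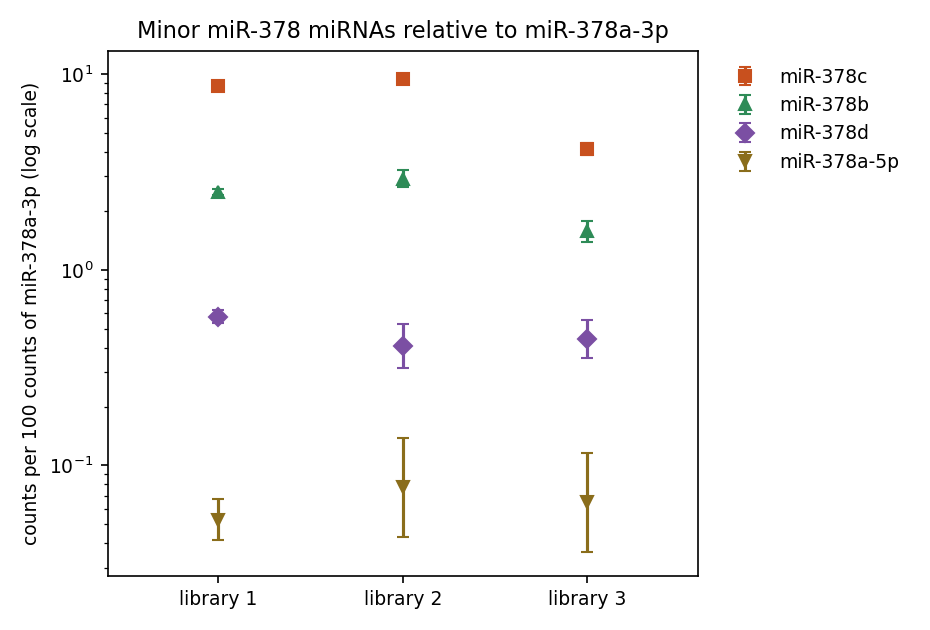
Counts of the 4 minor miR-378 miRNAs per 100 counts of miR-378a-3p (log axis) in libraries 1, 2 and 3, with Wilson 95% intervals. MiR-378c and miR-378b are lowest in library 3, at 4.14 and 1.57 per 100, and miR-378a-5p has overlapping intervals in all libraries.

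Whether counting error could cover the differences of the members between libraries was examined by a chi-square test of each miRNA's counts against the library totals, adjusted over the 353 miRNAs whose counts summed to 30 or more. All 5 members differed, but so did 90.1% of the miRNAs tested. All 5 were also highest in library 1, against 56.7% of tested miRNAs that both differed and were highest there (39.7% with TMM factors, edgeR's scaling that trims extreme ratios, under which all 5 were again highest in library 1). The chi-square values were 145805 for miR-378a-3p, 14429 for miR-378c, 3909 for miR-378b, 955 for miR-378d and 65.4 for miR-378a-5p. They scale with the counts and are no order of effect. The test compares these libraries, not conditions, and near-identical members are not independent of each other. Between libraries 2 and 3 alone, 61.5% of 288 tested miRNAs differed. There miR-378d did not pass (adjusted p = 0.984 in the chi-square test), while miR-378a-3p, miR-378b and miR-378c did. This was with library totals, and the direction of miR-378a-3p between these libraries depended on the scaling, as given below. MiR-378a-5p had too few counts to be tested there.

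By size, library 1 exceeded library 2 by 7.38-fold for miR-378a-3p, 6.82-fold for miR-378c, 6.31-fold for miR-378b, 10.4-fold for miR-378d and 5.04-fold for miR-378a-5p. Against library 3 the same folds were 7.96, 16.7, 12.7, 10.4 and 6.49. Among the 134 miRNAs that averaged 100 CPM or more, 35.8% were more than 2-fold higher in library 1 than in library 2 and 47% more than 2-fold higher than in library 3. A gap above 4-fold against both was seen for 14.9% of them, including miR-378a-3p, miR-378b and miR-378c. Of the 134, 9 had a higher ratio of library 1 to library 2 than miR-378a-3p, and 14 a higher ratio of library 1 to library 3. The family thus lay toward the upper end of a shift that many miRNAs showed.

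The median log2 ratio of these 134 miRNAs, on the log2(CPM + 1) scale, was 0.62 for library 1 over 2 and 0.96 for library 1 over 3. MiR-378a-3p exceeded these medians by 2.27 and 2.04, and miR-378c by 2.15 and 3.10. With TMM factors the medians were 0.0056 and 0.098. The log2 ratios of miR-378a-3p itself were then 2.27 and 2.13, in place of 2.88 and 2.99, and those of miR-378c 2.16 and 3.20. Library 2 over library 3 gave a log2 ratio of 0.11 for miR-378a-3p with library totals but -0.14 with TMM factors, so its direction between these libraries was not settled. For miR-378c that ratio was 1.29, or 1.04 with TMM factors, and for miR-378b 1.01 or 0.76.

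**Figure D3:**
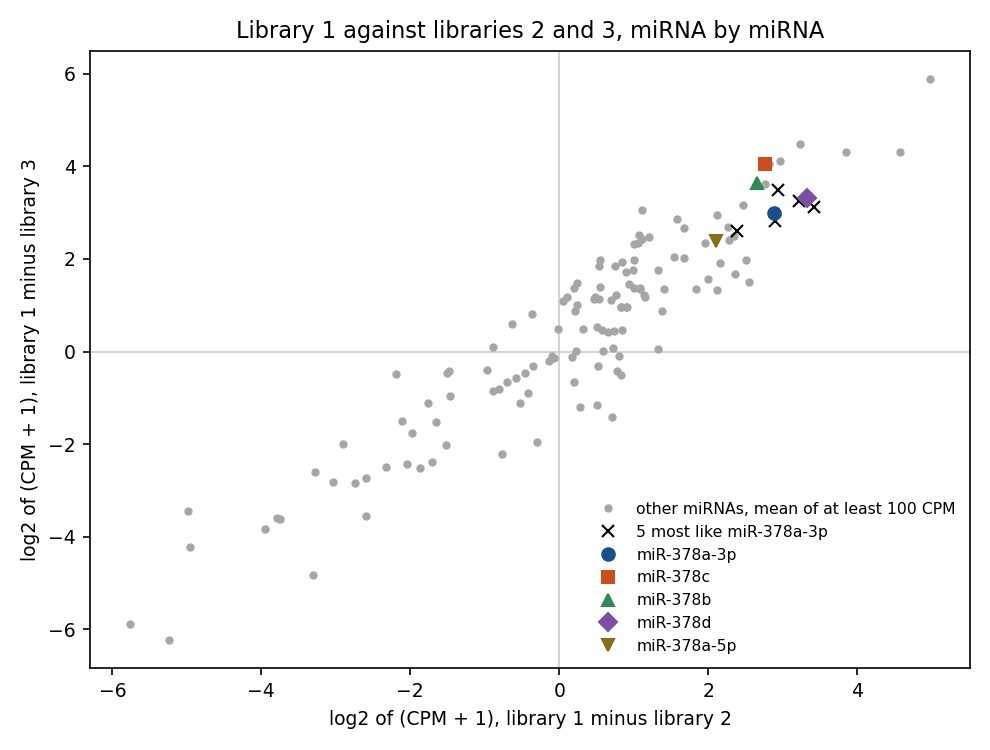
Difference in log2(CPM + 1) between library 1 and library 2 (horizontal axis) and between library 1 and library 3 (vertical axis) for the 134 miRNAs that averaged 100 CPM or more and for the less abundant miR-378d and miR-378a-5p. The miR-378 miRNAs lie in the upper right, near the 5 miRNAs whose pattern was most like miR-378a-3p (crosses), and miR-378c and miR-378b lie higher on the vertical axis than miR-378a-3p.

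The miRNAs whose pattern over the 3 libraries was most like that of miR-378a-3p were found by the distance between log2(CPM + 1) values, each centred on its mean, among 133 others that averaged 100 CPM or more. In order they were miR-27a-5p (distance 0.139), miR-423-3p (0.250), miR-25-3p (0.368), miR-23a-3p (0.384) and miR-328-3p (0.401), against a median distance of 1.95. MiR-27a-5p, the minor arm of the miR-27a hairpin, was at 374, 49.4 and 51.7 CPM. MiR-25-3p, a miRNA of the Mcm7 intron, was at 31984, 6108 and 5257 CPM, the last 2 close to those of miR-378a-3p. MiR-23a-3p was at 36140, 4729 and 3221 CPM. MiR-378b came 12th (0.650) and miR-378c 20th (0.919), so 11 miRNAs outside the family were nearer to miR-378a-3p than either of them. With a lower minimum mean of 10 CPM and 264 others, miR-378d came 7th (0.325) and miR-378a-5p 17th (0.578). These distances rest on 3 libraries that share the contrast of library 1 with the others, and are a description.

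The 2 arms of miR-378a were compared with edgeR's quasi-likelihood test over 157 precursors with both arms in the tables and a summed count of at least 60. The 5p arm made up 0.0528% of the arm counts in library 1 (Wilson 95% interval 0.0416 to 0.0671), 0.0773% in library 2 (0.0432 to 0.138) and 0.0648% in library 3 (0.0362 to 0.116), a mean of 0.0650% ± 0.0122 (SD, n = 3). The intervals overlap, so the arm ratio could not be told apart between libraries at this depth although the level of both arms was several-fold higher in library 1. There were 1891, 1292 and 1543 counts of the 3p arm per count of the 5p arm. The fitted log2 ratio of 3p to 5p was 10.6 (adjusted p = 1.35e-18, edgeR's quasi-likelihood test with Benjamini-Hochberg adjustment), with the 3p arm higher in 3 of 3 libraries. An arm difference passed for 80.3% of the precursors, and 38.9% passed with the 3p arm higher.

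MiR-378a was among the more lopsided precursors. In absolute log2 ratio it ranked 25th of 157, where the median was 6.24, and 9th of the 75 precursors with the 3p arm higher, where the median was 6.40. Of the 24 more lopsided precursors, 10 had no count at all of the minor arm, so that their fitted ratio depends on edgeR's prior count. By summed counts of both arms miR-378a ranked 10th. MiR-378b, miR-378c and miR-378d are listed without an arm suffix and had no partner to test.

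**Figure D4:**
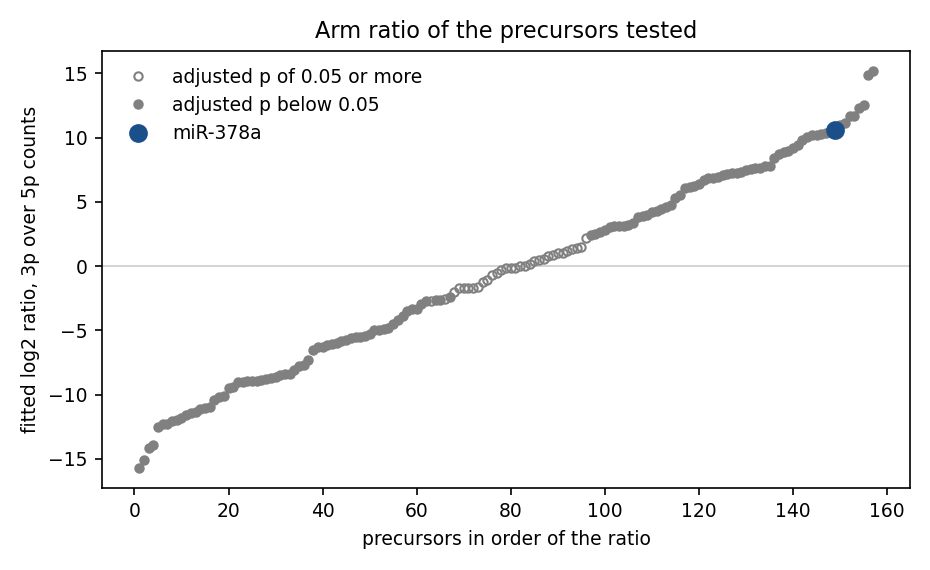
Fitted log2 ratio of 3p to 5p counts (vertical axis) for 157 precursors in order of that ratio (horizontal axis), with filled points at an adjusted p below 0.05. MiR-378a (large blue point, 10.6) lies near the 3p end of the order.

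Lists of related miRNAs were set beside the family. Over all 353 tested miRNAs, 90.1% differed among libraries (89.5% with TMM factors) and 60.3% were highest in library 1 (45.6% with TMM factors), and each list is read against these shares. The list of miRNAs linked to IL-4-activated macrophages, without miR-378, had 8 tested members of 11, all of which differed among libraries. Of these, 3 were highest in library 1 (1 with TMM factors). The log2 ratio given for lists is log2(CPM + 1) of library 1 minus the mean of log2(CPM + 1) in libraries 2 and 3. Its median over the tested members was 0.069 (-0.67 with TMM factors). Over all 353 tested miRNAs that median was 0.80 (0.12 with TMM factors), and over the 5 miR-378 miRNAs it was 3.15 (2.41 with TMM factors). MiR-146a-5p, a brake on Toll-like receptor signalling, was at 33401, 35012 and 36543 CPM, and let-7c-5p was lowest in library 1 at 5819, 18255 and 16847 CPM. MiR-21a-5p, also in that list, was at 37316, 305278 and 261488 CPM. MiR-27a-3p was highest in library 1, as miR-378a-3p was, at 27905, 14591 and 10194 CPM.

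The list of miRNAs known from energy and lipid metabolism had 13 tested members of 20 in the tables, of which 10 differed among libraries (11 with TMM factors) and 5 were highest in library 1 (4 with TMM factors). Both shares lay below those over all tested miRNAs. MiR-27b-3p led it, at 60242, 28503 and 23602 CPM. MiR-103-3p was highest in library 2, at 1246, 5712 and 1747 CPM, and miR-30c-5p was lowest in library 1, at 438, 1899 and 1235 CPM. MiR-33-5p, which lies in an intron of the sterol regulator Srebf2, was far lower than miR-378a-3p, at 11.0, 6.83 and 1.25 CPM. The median log2 ratio of the list was 0.089 (-0.57 with TMM factors).

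Other miRNAs from introns of protein-coding genes made up a list of 23, of which 18 were tested and all 18 differed. In this list 12 were highest in library 1 (8 with TMM factors), close to the share over all tested miRNAs, with a median log2 ratio of 0.96 (0.26 with TMM factors). MiR-140-3p, from an intron of Wwp2, was at 44208, 10146 and 5749 CPM, above miR-378a-3p in each library and most so in library 2. MiR-151-3p, from an intron of Ptk2, was highest in library 3 at 6900, 3893 and 9767 CPM, and miR-191-5p was at 8124, 6887 and 2897 CPM.

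Markers of the labelled cell type and of cells known for miR-378 were read in the same libraries. Each of the 7 myeloid markers reached 10 counts in every library, as did 273 of all 1915 miRNAs. The sums of the 7 were 7.13%, 34.5% and 30.02% of counts. Most of the gap between libraries was miR-21a-5p, without which the other 6 summed to 33995, 39742 and 38679 CPM. Of the 7, 5 were lowest in library 1 (6 with TMM factors), against 27.5% of all tested miRNAs (38.2% with TMM factors). The members did not move as 1 set. MiR-142a-3p, defining for blood cells, was at 42.9, 1364 and 819 CPM and miR-155-5p at 74.8, 2388 and 829 CPM, both low in library 1. MiR-142a-5p was at 292, 818 and 390 CPM and miR-223-3p at 35.6, 52.6 and 33.0 CPM, while miR-342-3p was highest in library 1 at 149, 106 and 65.4 CPM. Of 7 muscle markers 4 had any count, against 886 of all 1915 miRNAs, and the list summed to 5.98, 4.02 and 5.30 CPM. MiR-133b-3p, miR-208a-3p and miR-208b-3p were at 0 in each library, and miR-1a-3p, defining for muscle, had 1, 0 and 3 counts and miR-133a-3p 7, 0 and 2. The highest muscle marker was miR-499-5p, with 10 counts in each library.

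The 5 erythroid and platelet markers summed to 90.4, 28.1 and 15.6 CPM with miR-486a-5p and miR-486b-5p, whose counts are equal in every library, counted once (145, 37.8 and 19.9 CPM with both). The sum was highest in library 1, with miR-451a at 33.9, 17.3 and 11.2 CPM and miR-486a-5p at 54.2, 9.64 and 4.36 CPM. The 4 hepatocyte markers summed to 1432, 1152 and 2028 CPM, with miR-122-5p lowest in library 1 at 322, 548 and 1500 CPM and miR-192-5p highest there at 1067, 480 and 469 CPM. The 5 stromal markers summed to 263, 155 and 154 CPM, led by miR-199a-3p at 223, 125 and 114 CPM. Of the 3 tested stromal markers 1, miR-199a-3p, differed among libraries, against 90.1% of all tested miRNAs. With library totals 2 of the 3 were highest in library 1 (60.3% of all tested miRNAs) and 0 were lowest there (27.5%). With TMM factors 2 of the 3 differed (89.5% of all tested miRNAs) and 2 were lowest in library 1 (38.2%). These counts thus depended on the scaling. MiR-143-3p was at 20.9, 14.1 and 19.6 CPM, and miR-199a-5p was highest in library 3 at 15.6, 14.5 and 19.3 CPM. The part of these cell types, or of serum or other RNA in the pellet, in the miR-378 levels was not tested.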

How the data were processed

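Small RNA from exosome pellets of 1 group (3 libraries) was sequenced as single-end reads of 50 bases, per the labels' protocols. Per the submitters' processing notes, Bcl2fastq, BWA and mm10 were used, with no versions. Trimming, the miRNA release and multi-matching reads are not given in the sources used here. The authors deposited whole-number counts per mature miRNA, the unit of all tests, and an RPM value, whose denominators, worked out from the columns, are 14047692, 13995845 and 14002577. MiRNA counts are 21.4%, 17.8% and 22.9% of these. CPM uses the miRNA total instead.

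The chi-square test (SciPy 1.17.1, summed count of at least 30) and the arm test (edgeR 4.0.16, terms for library and arm, miRNA totals as library sizes) ran over all miRNAs or precursors and were tested on simulated data. For the chi-square test the simulated counts varied by counting error alone, apart from planted changes. For the arm test the planted ratios were smaller than that of miR-378a. The outcomes are not given here. Adjustment was by Benjamini-Hochberg with a threshold of 0.05. DESeq2 1.42.0 served as an alternative, as did other scalings, filters and leaving out each library. Named are the members, the 5 nearest patterns, rank neighbours and up to 4 leading members of each list. MiR-33-5p, the muscle miRNAs at 0, miR-142a-5p, miR-223-3p and miR-342-3p were added after their values were seen. Members and lists were chosen with earlier results of these data known. Of 75 list names, 74 were in the tables.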

Additional observations from a re-analysis of the deposited data

How the results depend on the processing

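Library 1 decided the level of the family. The mean share of counts ranged from 0.603% to 2.68% when each library was left out in turn, and was 1.59% with TMM factors, 1.64% with DESeq2 size factors, 2.19% without miR-21a-5p in the total and 0.417% of the authors' RPM denominator. All 5 members stayed higher in library 1 than in both others under each of these scalings, with log2 ratios of miR-378a-3p to library 2 between 2.23 and 3.15. Between libraries 2 and 3 the log2 ratio of miR-378a-3p turned from 0.11 to -0.14 (TMM), -0.12 (DESeq2 size factors) and -0.25 (RPM), and that of miR-378d from -0.0050 to 0.083 without miR-21a-5p in the total. The cause was not tested. The number of miRNAs that differed among libraries was 177 to 284 with 1 library left out, against 318. The low value was without library 1, where 288 were tested. The arm ratio of miR-378a stayed between 10.4 and 10.7 in every alternative, with DESeq2 and 3 leave-one-out fits included (adjusted p from 3.37e-48 to 2.03e-08). The ratios of miR-378c, miR-378b and miR-378d to miR-378a-3p ranged from 6.42 to 9.05, 2.04 to 2.72 and 0.425 to 0.509 per 100 with 1 library left out. With 1 group there were no samples to pair across groups, and the arm test compares the arms within each library. Depth limits miR-378a-5p, with 11 counts in libraries 2 and 3.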
